A study of Mus musculus with 6 samples.

Results

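The genes described here encode the fibroblast growth factors (Fgf), their receptors (Fgfr), and regulators that the pathway switches on or that limit it. They were read from RNA of whole mouse embryos on embryonic day 8.5. Members were the probe sets whose annotation gave a single gene symbol of the Fgf, Fgfr, Spry or Spred name families, or Dusp4, Dusp6, Etv4, Etv5 or Il17rd; 1 ligand of the name pattern was left out in advance. Etv1 and Frs2 were also sought, but had no probe set with a single symbol. In all 89 of 45037 probe sets were members, for 39 of 18193 named genes. The name rule also brought in Fgfr1op2, which is named after a fusion partner of Fgfr1 and is no receptor.

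The study compared 3 wild-type embryos with 3 Tcof1+/- littermates. Tcof1 encodes treacle, which works in the nucleolus in the making of ribosomal RNA, and the heterozygotes keep 1 working copy. RNA of each embryo went on a separate Mouse Genome 430 2.0 array (Affymetrix). Several short probes to a transcript form a probe set, whose readings are combined into 1 signal in arbitrary units. The sources used here do not give the strain, the construction of the allele or the sex of the embryos. Arrays of the genotypes shared scan days but no fluidics module, the washing unit, so module and genotype cannot be told apart. Each sample was a whole embryo, so fewer cells of a type and less RNA per cell cannot be told apart.

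Fgf ligands bind receptor tyrosine kinases on neighbouring cells together with heparan sulphate and activate the Ras, Raf, Mek and Erk cascade. Erk signalling induces the Etv transcription factors and a set of inhibitors, among them Sprouty proteins, the Erk phosphatase gene Dusp6 and Il17rd. Transcripts of these genes are thus commonly read as a record of pathway activity. The related Spred proteins also inhibit the cascade. At this stage Fgf signals act in the tail bud, the midbrain and hindbrain boundary, the otic region, the pharyngeal arches and the heart field.

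Across the array the signal of Tcof1 was 387 ± 5.89 (SD, n = 3) in wild types and 211 ± 27.7 (SD, n = 3) in heterozygotes (log2 difference -0.88, limma adjusted p = 0.0352). Markers of the embryo's own tissues stood above the bacterial control probe sets on every array, for 12 of 12 mesoderm and heart genes, 11 of 11 tail bud genes and 9 of 11 neural genes. Extraembryonic content varied between embryos: summed yolk sac endoderm markers lay between 1981 and 10773 in wild types and between 876 and 17373 in heterozygotes. Summed erythroid markers lay between 5894 and 13904 and between 354 and 11386. Trophoblast markers summed to 262 to 285 in wild types and 292 to 372 in heterozygotes, without overlap. Of the 7 on the array, 3 stood above the controls on every array, and Tpbpa stood above them on none. Of the 5 tested, 4 were positive, with a median log2 difference of 0.29, and none passed the test. Summed markers of the decidua, the maternal tissue around the embryo, were 1231 to 1592 and 1446 to 1506.

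No Fgf pathway gene passed the test between genotypes. Of the 39 genes, 27 were bright enough to be tested, on 55 probe sets. In limma 0 of 55 passed at an adjusted p under 0.05, where 0.0814% of all tested probe sets did, and the smallest adjusted p of a member was 0.781. By gene, 0 of 27 passed, beside 0.124% of all tested genes. At an unadjusted p under 0.05 there were 2 of 27 genes, or 7.41%, beside 6.89% of all tested genes; 1 was higher (3% of all) and 1 lower (3.89% of all). The signals of the genotypes did not overlap for 4 of 27 genes, or 14.8%, beside 13% of all tested genes; 1 was higher (5.7% of all) and 3 were lower (7.31% of all). The shares without regard to direction are near the background. With 1 probe set per gene, the one with the highest mean, 15 differences were positive and 12 negative, with a median of 0.03 on the log2 scale, against -0.01 over all tested genes. Relative to the wild-type mean, the median over the 27 genes was 0.02, 0.01 and -0.07 in heterozygous embryos 1, 2 and 3.

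How small a change these arrays could bound differed between genes. For 16 of the 27 genes the 95% interval of the difference, not adjusted for multiple tests, lay within 1.5-fold in either direction (0.58 on the log2 scale). That is 59.3%, beside 60.6% of all tested genes, so the member share was near the background. For 25 of the 27 it lay within 2-fold, beside 10792 of all 12853 tested genes. For the other genes the interval reached past 1.5-fold, and the widest was that of Fgf22, from -0.28 to 1.66.

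**Figure D1:**
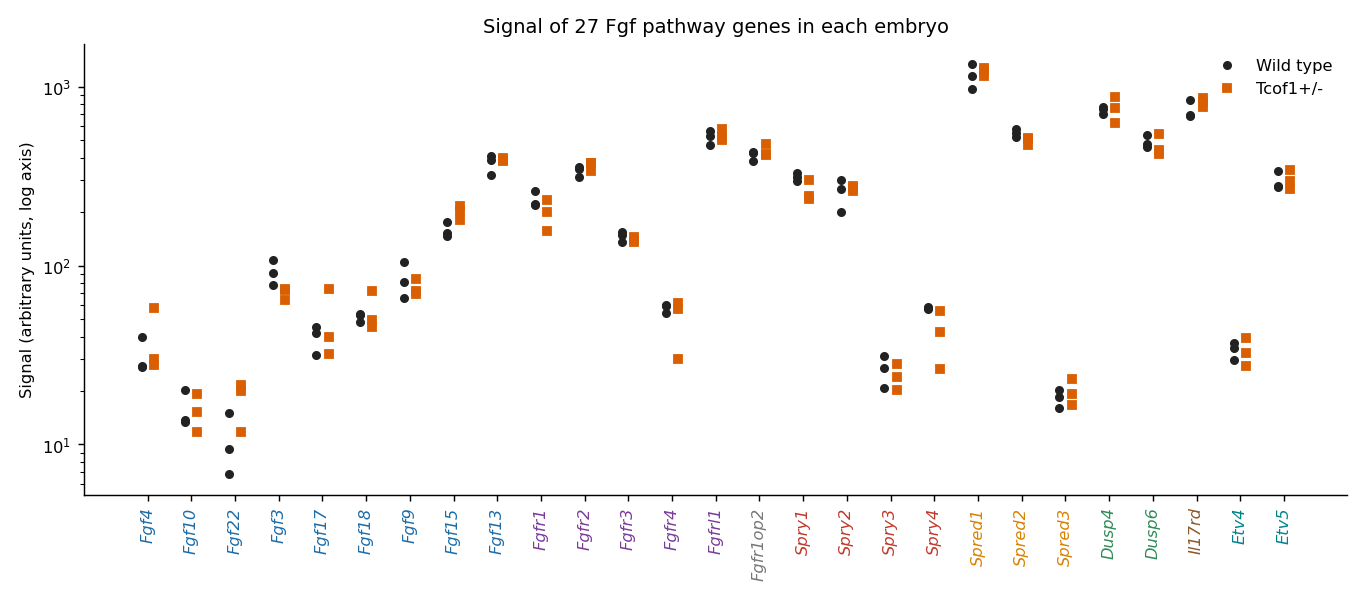
Signal (arbitrary units, log axis) of the 27 tested genes, 1 probe set per gene, with a black circle for each of 3 wild-type embryos and an orange square for each of 3 Tcof1+/- embryos. Heights cannot be compared between genes; within a gene the genotypes overlap for all but Fgf15, Fgf3, Spry4 and Spred2.

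**Figure D2:**
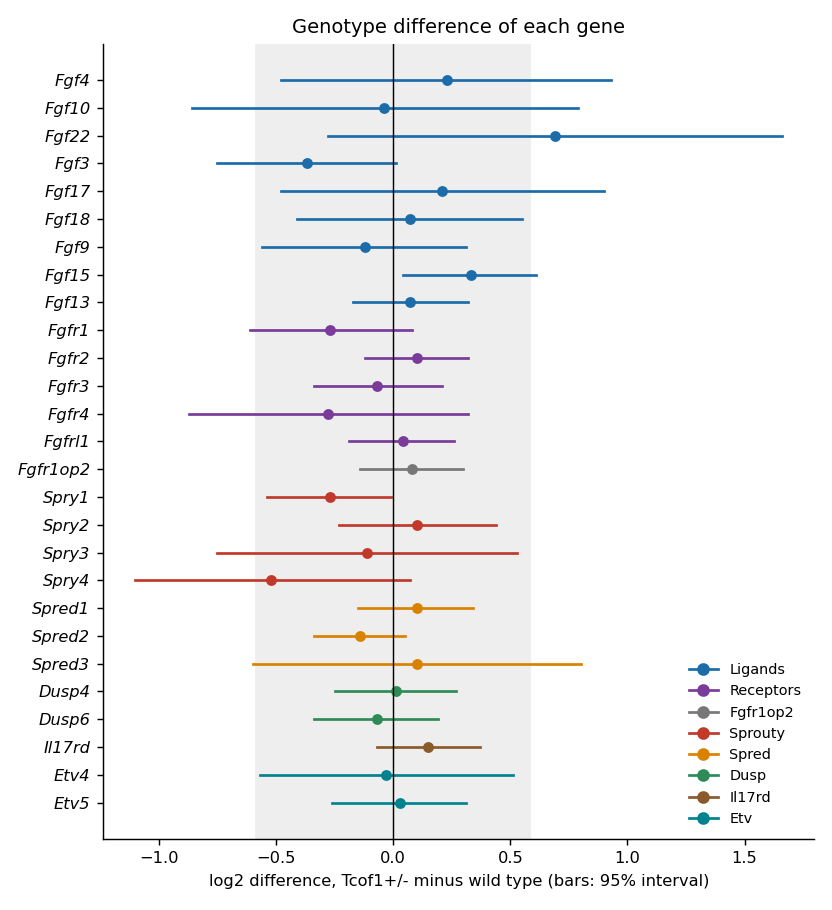
Difference in log2(signal + 1.87) between Tcof1+/- and wild-type embryos for each gene, with 95% intervals from limma (n = 3 per genotype); the grey band spans 1.5-fold in either direction. Points lie from -0.52 for Spry4 to 0.69 for Fgf22, and the intervals of Fgf15 and Spry1 leave out 0 before adjustment.

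Among the ligands, Fgf15 had the smallest p of all members. It is the mouse counterpart of the endocrine factor FGF19, and in the early embryo it is a gene of the neural tube. Its signal was 147, 152 and 175 in wild-type embryos 1 to 3 and 201, 215 and 179 in heterozygous embryos 1 to 3. Every heterozygote lay above every wild type, by a small margin for heterozygous embryo 3. The log2 difference was 0.33 (SE 0.13, 1.25-fold), with a limma adjusted p of 0.781. Taken by scan day it was 0.47 on the first, with 2 embryos per genotype, and 0.03 on the second, with 1. The neural markers went the other way, with 9 of 9 tested genes negative, a median of -0.53, and summed signals of 1860 to 2183 in wild types and 1377 to 1750 in heterozygotes; their part in the Fgf15 values was not tested. Fgf23, also endocrine, was too dim to be tested, at 1.71, 21.1 and 12 in wild types and 15.1, 8.65 and 20.8 in heterozygotes.

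Fgf3, a signal of the hindbrain and otic region, stood lower on its brightest probe set, at 90.9, 108 and 78.1 in wild types and 64.3, 73.4 and 73.8 in heterozygotes. The groups did not overlap, and the log2 difference was -0.37 (SE 0.17, limma adjusted p = 0.793). The other probe sets of Fgf3 differed by 0.18 and -0.18, with overlapping signals. On the first scan day the difference of the brightest was -0.51 and on the second -0.08.

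Within the same subfamily, Fgf10, a mesenchymal ligand of the heart field and limb, was at 20.2, 13.4 and 13.7 in wild types and 15.1, 11.8 and 19.1 in heterozygotes. Those values overlapped throughout. The larger difference of Fgf22, 0.69 (SE 0.43), came from signals of 6.81 to 21.6 that were above the controls on 4 of 6 arrays. Fgf4, made in the primitive streak and presomitic mesoderm, was at 27, 27.6 and 39.9 in wild types and 58.1, 30.0 and 27.9 in heterozygotes. Heterozygous embryo 1 alone was high, and without it the difference of 0.23 became -0.09. Fgf5, an epiblast factor of the same subfamily, was not tested, with signals of 12.7, 15.8 and 16.6 in wild types and 13.2, 1.13 and 17.7 in heterozygotes.

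Fgf17 and Fgf18, ligands of the midbrain and hindbrain boundary, were both highest in heterozygous embryo 2. Fgf17 was at 42.2, 31.7 and 45.2 in wild types and 40.1, 73.9 and 31.9 in heterozygotes, a log2 difference of 0.21 (SE 0.31). Fgf18 was at 53.8, 48.3 and 53.2 and at 45.2, 72.1 and 49.3, a difference of 0.07 (SE 0.22). Without heterozygous embryo 2 each difference was -0.13. The second probe set of Fgf17 did not show this embryo as the highest; it read 54.1, 34.1 and 41.3 in wild types and 30.1, 47.4 and 55.0 in heterozygotes.

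Fgf9, a ligand of epithelia and mesothelia, was at 66.1, 80.4 and 104 in wild types and 72.5, 69.7 and 83.8 in heterozygotes, with a log2 difference of -0.12 (SE 0.19). Its dimmer probe set differed by 0.50 (SE 0.32), because heterozygous embryo 3 gave 93.4 there against 31.3 to 48.4 in the other embryos. Fgf16, of the same subfamily, was not tested, at 15.6, 0.497 and 11 in wild types and 15.8, 13 and 11.6 in heterozygotes. Fgf13 belongs to the Fgf homologues that stay inside the cell, where they bind sodium channels and microtubules. It was at 389, 322 and 409 in wild types and 401, 389 and 382 in heterozygotes, a difference of 0.07 with an interval from -0.17 to 0.32. Fgf14 of the same subfamily was not tested, at 19.4, 17.6 and 11.9 and at 1.83, 8.08 and 18.

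The untested members were 12 ligand or intracellular Fgf genes, namely Fgf1, Fgf2, Fgf5, Fgf6, Fgf7, Fgf11, Fgf12, Fgf14, Fgf16, Fgf20, Fgf21 and Fgf23. Their signals ran from 0.232 to 21.1 on the brightest probe set, and the control probe sets reached 8.55 to 13.5 per array. Fgf1 was at 13.0, 13.1 and 12.1 in wild types and 16.6, 4.15 and 13.4 in heterozygotes. Fgf2, the other classical heparin-binding factor, was below the controls on every array, at 1.20, 0.490 and 8.90 and at 4.38, 4 and 0.232. No detection call was used, so these genes are described as dim, and a transcript confined to few cells of the embryo would look the same.

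All 5 receptor genes were tested, and 3 of the 5 intervals lay within 1.5-fold, beside 60.6% of all tested genes. Fgfr1, the receptor of mesoderm and neural tube, had the smallest p of the group. It was at 222, 260 and 218 in wild types and 231, 199 and 156 in heterozygotes, a log2 difference of -0.27 (SE 0.15, limma adjusted p = 0.824). All 3 of its tested probe sets were negative, from -0.27 to -0.06. Heterozygous embryo 3 was the lowest, and without it the difference on the brightest probe set was -0.12. Fgfr2, the receptor of epithelia and neuroectoderm, was at 344, 314 and 357 in wild types and 372, 339 and 375 in heterozygotes, a difference of 0.10 with an interval from -0.12 to 0.32. Fgfr3, a receptor of the neural tube, was at 136 to 153 in wild types and 135 to 145 in heterozygotes, and differed by -0.07 (-0.34 to 0.21). Fgfrl1, a receptor that lacks the kinase domain, was at 530, 562 and 470 in wild types and 504, 520 and 579 in heterozygotes, a difference of 0.04 (-0.19 to 0.26).

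Fgfr4, an endodermal and myogenic receptor, was at 60.1, 54.3 and 59.7 in wild types and 62.0, 30.2 and 56.8 in heterozygotes. Only heterozygous embryo 2 stood apart, and without it the difference of -0.28 became 0.03. That embryo also had the lowest summed yolk sac endoderm signal, 876. Wild-type embryo 1, the next lowest at 1981, had an Fgfr4 signal of 60.1, within the range of the others. The yolk sac markers had a median log2 deviation of -3.07 in heterozygous embryo 2 and -1.74 in wild-type embryo 1. The part of yolk sac in the Fgfr4 values was not tested. Fgfr1op2 was at 425, 431 and 386 in wild types and 421, 416 and 477 in heterozygotes, a difference of 0.08 (SE 0.10).

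The Sprouty proteins are intracellular inhibitors of receptor tyrosine kinase signalling, and 3 of the 4 genes had negative differences, with a median of -0.19 beside -0.01 over all tested genes. None passed, and on the first and second scan day the median was -0.07 and -0.43. Spry1 was at 298, 314 and 329 in wild types and 300, 246 and 236 in heterozygotes. Heterozygous embryos 2 and 3 were the low ones, while embryo 1 lay inside the wild-type range. Its log2 difference was -0.27 (SE 0.12, 0.83 of the wild-type level), with a limma unadjusted p of 0.0456 and an adjusted p of 0.793. Within the first scan day it was -0.17 and within the second -0.48. Spry4 was at 57, 58.5 and 58.2 in wild types and 55.9, 42.6 and 26.5 in heterozygotes. Those groups did not overlap, but the gap was narrow for heterozygous embryo 1, and the difference of -0.52 (SE 0.26, limma adjusted p = 0.810) became -0.24 without heterozygous embryo 3. The dimmer probe sets of Spry4 differed by 0.05 and -0.01. Spry2 was at 299, 198 and 267 in wild types and 277, 260 and 271 in heterozygotes, a difference of 0.10 (SE 0.15). Spry3 was dim, at 20.6 to 31.2 in wild types and 20.1 to 28.3 in heterozygotes, with a difference of -0.11 (SE 0.29).

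CCGGAA is a form of the site bound by ETS factors, the family of Etv4 and Etv5. Start-site regions are shown for Spry1, the Sprouty gene with the smallest p, and Dusp6, a phosphatase gene commonly used as an Erk readout. A further region is that of Fgfrl1, a tested member with a match to CCGGAA. Each is the 250 bases before the annotated start, 5′ to 3′, from RefSeq (GRCm38.p6), with any CCGGAA or its reverse complement in capitals. They lie at chr3:37639697-37639946 (plus strand), chr10:99262981-99263230 (plus strand) and chr5:108693979-108694228 (plus strand).
Spry1: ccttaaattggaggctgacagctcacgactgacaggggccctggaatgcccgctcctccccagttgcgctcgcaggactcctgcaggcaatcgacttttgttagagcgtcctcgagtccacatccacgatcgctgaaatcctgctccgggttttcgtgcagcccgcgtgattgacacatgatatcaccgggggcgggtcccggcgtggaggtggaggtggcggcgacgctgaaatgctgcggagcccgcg
Dusp6: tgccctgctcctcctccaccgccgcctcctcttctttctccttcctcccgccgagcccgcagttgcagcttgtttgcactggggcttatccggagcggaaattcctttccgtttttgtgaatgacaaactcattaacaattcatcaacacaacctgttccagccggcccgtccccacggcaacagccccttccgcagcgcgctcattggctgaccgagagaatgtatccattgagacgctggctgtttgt
Fgfrl1: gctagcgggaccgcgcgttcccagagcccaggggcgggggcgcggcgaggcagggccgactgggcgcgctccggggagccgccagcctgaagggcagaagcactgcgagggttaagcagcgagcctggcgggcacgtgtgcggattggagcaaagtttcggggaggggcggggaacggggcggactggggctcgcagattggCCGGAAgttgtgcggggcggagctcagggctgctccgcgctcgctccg
The match in Fgfrl1 begins 48 bases before the start, and the windows of Spry1 and Dusp6 hold no CCGGAA on either strand. Shorter or other forms of the ETS site were not searched. Start sites were found for 20 of the 27 tested genes, with 26 windows. Of these, 2 (7.69%, Fgfr4 and Fgfrl1) hold CCGGAA on either strand, beside 12% of the 32851 windows of all genes. The p53 decamer consensus, searched on both strands because p53 is known to be active in Tcof1+/- embryos, was in 0 of the 26 windows, beside 7.13% of all, and neither motif can contain the other. A match is a string of letters and does not show that a factor binds there.

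The Spred proteins are membrane-bound relatives of Sprouty that hold back Raf. Spred1 was at 1139, 964 and 1328 in wild types and 1146, 1225 and 1269 in heterozygotes. The groups overlapped, and the log2 difference was 0.10 with an interval from -0.15 to 0.34. Spred2 was at 550, 581 and 520 in wild types and 516, 470 and 508 in heterozygotes. Each heterozygote lay below each wild type, yet the difference was small, -0.14 (SE 0.09, limma adjusted p = 0.838), and 3 of the 4 dimmer probe sets were positive. Spred3 was dim, at 16.0 to 20.1 and 16.6 to 23.3, with a difference of 0.10 (SE 0.31).

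For Dusp4, Dusp6, Il17rd, Etv4 and Etv5 all 5 intervals lay within 1.5-fold, beside 60.6% of all tested genes. The median SE of these 5 was also smaller, at 0.12 against 0.15 over all tested genes. The median difference of the 5 was 0.01. Other genes that Erk signalling induces lay farther from 0 without passing the test, such as Spry4 at -0.52. Dusp6, which encodes the phosphatase that removes phosphate from Erk in the cytoplasm, was at 535, 480 and 459 in wild types and 441, 544 and 420 in heterozygotes. Its difference was -0.07 (-0.34 to 0.19). Dusp4, the nuclear phosphatase gene, was at 700, 747 and 765 in wild types and 870, 757 and 622 in heterozygotes, so that the heterozygotes held both the highest and the lowest value. The difference was 0.01 (-0.25 to 0.27), and its sign changed with equal array medians.

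Il17rd encodes Sef, a membrane protein that blocks Erk signalling. It was at 697, 840 and 682 in wild types and 771, 868 and 818 in heterozygotes, with a difference of 0.15 (-0.07 to 0.37). Etv5 was at 277, 274 and 337 in wild types and 340, 298 and 267 in heterozygotes, and differed by 0.03 (-0.26 to 0.31). Etv4, a dimmer gene of the same factor family, was at 34.8, 37.0 and 29.5 and at 32.5, 39.5 and 27.5, with a difference of -0.03 (-0.57 to 0.51). Neither Etv gene separated the genotypes.

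The heterozygotes differed among themselves in these feedback genes, a pattern picked out after the values were seen. Heterozygous embryo 3 was the lowest of the 6 embryos for 7 of the 12 Sprouty, Spred, Dusp, Etv and Il17rd genes, namely Spry1, Spry3, Spry4, Dusp4, Dusp6, Etv4 and Etv5. Over all 12853 tested genes it was the lowest for 15.5%. The median log2 deviation of the 12 genes from their mean over the embryos was -0.17 in heterozygous embryo 3, and 0.01 and 0.02 in heterozygous embryos 1 and 2. In wild-type embryos 1, 2 and 3 it was 0.01, 0.10 and 0.04. Ligands did not show this, since heterozygous embryo 3 was lowest for 0 of 9. Its summed tail bud markers, 2828, were also the lowest of the 6 embryos, against 2905 to 3872 in the others. So were its summed pharyngeal endoderm and ectoderm markers, 7499 against 7535 to 9043. It was 1 of the 2 arrays of the second scan day. Wild-type embryo 2, with the next lowest tail bud sum of 2905, had a median deviation of 0.10 over the 12 genes. The wild type of the second scan day had one of 0.04. The tail bud markers themselves had a median log2 deviation of -0.18 in heterozygous embryo 3. In the other embryos it was -0.05 to 0.28, with -0.03 in wild-type embryo 2. Whether tail bud or pharyngeal content or scan day bears on the pattern was not tested. The 3 prime to 5 prime log2 difference of Gapdh, a measure of RNA quality, was 0.81 in heterozygous embryo 3 and 0.68 to 1.04 in the others. Without heterozygous embryo 3 the median difference of the 12 genes was 0.04, and with it -0.01.

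**Figure D3:**
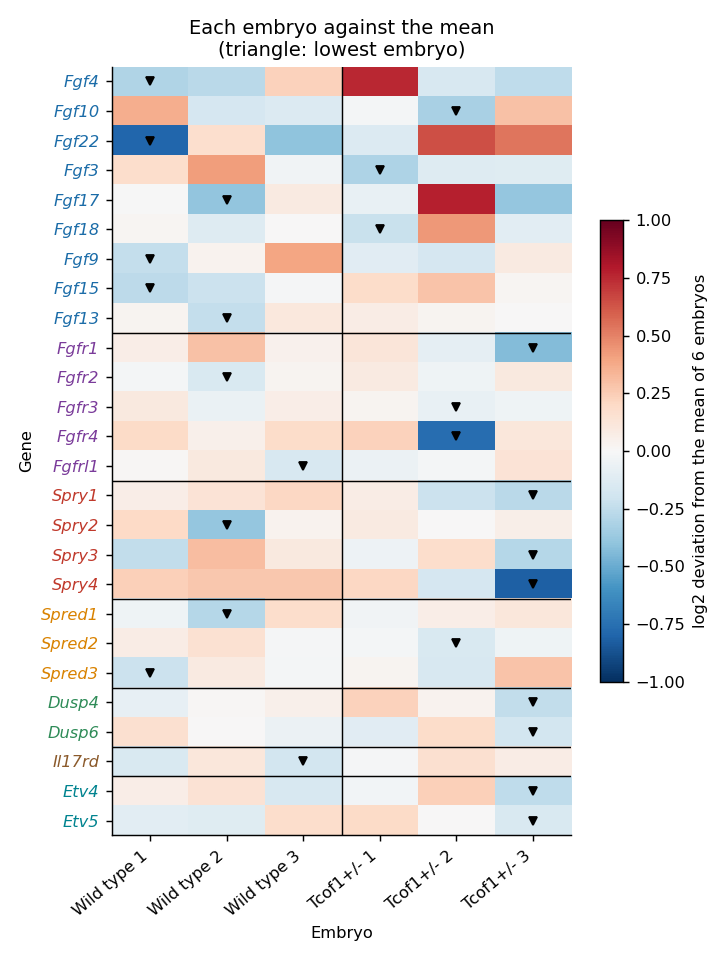
Log2 deviation of each embryo (columns) from the mean of 6 embryos for 26 genes (rows, Fgfr1op2 left out), blue for lower and red for higher, with a triangle on the lowest embryo. Triangles gather in the column of Tcof1+/- embryo 3 among the Sprouty, Dusp and Etv genes, and Fgf17 and Fgf18 are red in Tcof1+/- embryo 2.

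Probe sets of 1 gene often disagreed about the sign of such small differences. Of 15 member genes with several tested probe sets, 4 had the same sign on all (Fgf17, Fgfr1, Fgfr1op2 and Il17rd) and 11 did not. Spred1 had 6 tested probe sets, from -0.31 to 0.13, and Spred2 had 5, from -0.19 to 0.57. The values farthest from 0 came from dim probe sets, such as 0.59 (SE 0.59) for the second of Fgf4 and -0.52 (SE 0.49) for the second of Spry2.

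**Figure D4:**
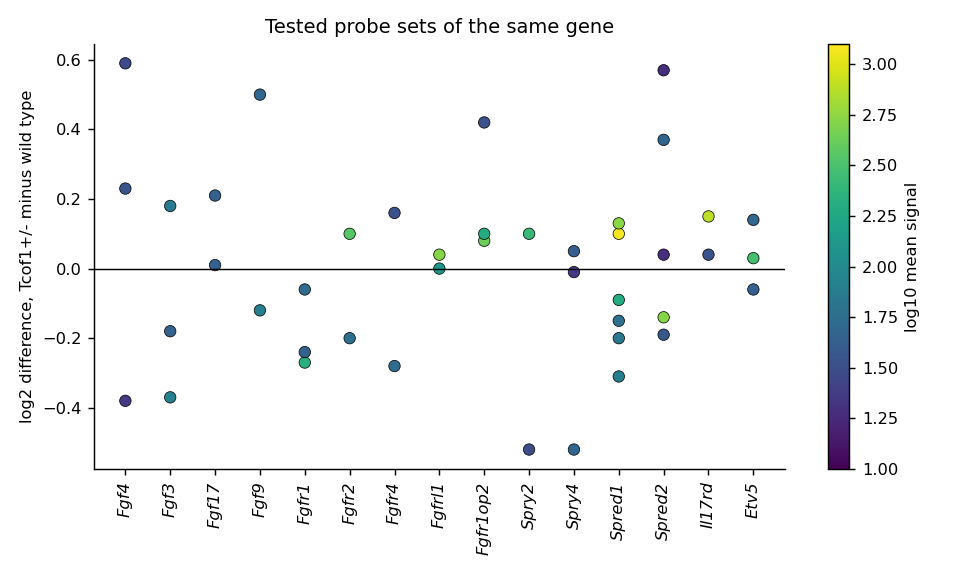
Log2 difference between Tcof1+/- and wild-type embryos for every tested probe set of the 15 genes with more than 1, coloured by log10 mean signal. The differences farthest from 0 belong to dim probe sets, in blue and purple, and the signs differ within 11 of the 15 genes.

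The rest of the pathway was read from lists chosen by known function, and no member of them passed over all probe sets. Of 26 tested co-receptor and heparan sulphate genes 14 were positive and 12 negative, with a median of 0.01. For 20 of the 26 the interval lay within 1.5-fold. At an unadjusted p under 0.05 there were 2 higher and 1 lower of the 26, beside 3% and 3.89% of all tested genes. The smallest p belonged to Sulf2, which trims sulphate from heparan chains (1960 ± 163 in wild types and 2333 ± 86.8 in heterozygotes, SD, n = 3; log2 0.25, limma adjusted p = 0.655). Nptn, an Fgfr1-binding membrane protein gene, followed (0.23, limma adjusted p = 0.720). Of 28 genes of the Ras to Erk cascade 10 were positive and 18 negative, with a median of -0.06. Within 1.5-fold lay 24 of their intervals, beside 60.6% of all tested genes. Their median SE was 0.11, smaller than the 0.15 over all tested genes, which makes for narrower intervals. The small GTPase gene Rras had the smallest p there (238 ± 6.87 and 191 ± 11, SD, n = 3; log2 -0.31, limma adjusted p = 0.731), and Map2k1, which encodes Mek1, differed by -0.15. Among 26 tested genes known to respond to Erk 14 were positive and 12 negative, with a median of 0.02. For 13 of these 26 the interval lay within 1.5-fold, and their median SE was 0.17. The phosphatase genes Dusp2 (48.7 ± 4.53 and 28.1 ± 3.82, SD, n = 3; log2 -0.76, limma adjusted p = 0.653) and Dusp1 (log2 -0.40, limma adjusted p = 0.685) had the smallest p of this list.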

How the data were processed

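For every array the authors deposited a linear intensity for each probe set; the submitters' processing notes name GCOS, the software of the scanner, and the sources used here give neither its version nor how probes were combined. Per the labels, 100 ng of total RNA was amplified and labelled for each embryo. The trimmed mean (2% at each end) was 150 on every array, found from the values. Scan day was read from the instrument records, per the file headers: replicates 1 and 2 of both genotypes on the first day and replicate 3 of both on the second.

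After 64 controls were left out, values became log2(signal + 1.87), where 1.87 is their 10th percentile. Probe sets among the lowest 40% by mean log2 value, below a signal of about 13.2, were not tested. Differences were fitted over all 27022 others with limma 3.58.1 in R 4.3.3 (lmFit, eBayes with an intensity trend), genotype as the sole term, Benjamini-Hochberg adjustment at 0.05. Folds are on this log2 scale and understate changes of dim genes. The fit was tested on simulated data with the spread of these arrays. It recovered 14.4% of 1.5-fold, 38.8% of 2-fold and 69.6% of 4-fold changes, with 3.48% false among its calls. Changes of 2-fold or less would thus mostly be missed among probe sets drawn at random from all those tested. Recovery was not found for the members alone. Their median SE was 0.15 with 1 probe set per gene and 0.22 over their 55 probe sets, against 0.19 over all tested probe sets. Replicates are separate embryos per the labels, and 3 per genotype limit the precision. Same-numbered embryos were not paired: their deviations correlated from -0.105 to -0.024.

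Symbols came from the platform annotation. Every member was named, with values per array for the 2 brightest genes of each role group and those with an unadjusted p under 0.05; further values were chosen after they were seen. Context lists are named for their 2 smallest p. Members and lists were chosen with earlier results of these data known. Markers of 8 tissues were summed per array. Alternatives covered the pseudocount, scaling, filter, variance prior, array weights, blocks, scan day, Xist signal as a covariate and each array left out. Figures were drawn with matplotlib 3.10.9.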

Additional observations from a re-analysis of the deposited data

How the results depend on the processing

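The count of 0 member probe sets passed in every alternative fitted, where the smallest adjusted p of any member was 0.418. Over all probe sets the count of 22 became 0 without the intensity trend, 10 with the replicate block, 14 with scan day as a block, 12 on the first scan day alone and 9 with Xist signal as a covariate. With 1 array left out it ranged from 8 (wild-type embryo 1 absent) to 20; leaving out wild-type embryo 2 gave 11, wild-type embryo 3 also 11, and heterozygous embryo 2 gave 12. The replicate block changed no call of a member. The median over the 27 genes, 0.03, became -0.09 on the second scan day alone and ran from -0.04 to 0.04 with 1 array left out. The causes were not tested.

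Of 535 recomputed differences of single genes, 54 changed sign, in 20 of the 27 genes. The fits gave 508 of these differences, of which 46 changed sign and 0 passed the threshold. The second scan day alone, with 1 array per genotype and no test, gave the other 27, of which 15 moved by over 1 SD and 8 changed sign: Fgf4 (-0.49), Fgf10 (0.43), Fgf17 (-0.48), Fgf18 (-0.10), Fgf13 (-0.10), Spred1 (-0.07), Dusp4 (-0.30) and Etv5 (-0.34). Fgf22, Fgf15, Fgfr1, Fgfr3, Spry1, Dusp6 and Il17rd kept their sign in all of these. Sign changes on the first scan day alone were Fgfrl1 (-0.09), Fgfr1op2 (-0.03), Spry3 (0.03) and Spred3 (-0.01). With Xist signal as a covariate Fgf18 was at 0.00 and Etv4 at 0.01, and with equal array medians Dusp4 was at 0.00. With 1 array left out the ranges were -0.09 to 0.41 for Fgf4, -0.19 to 0.14 for Fgf10, -0.13 to 0.45 for Fgf17, -0.13 to 0.20 for Fgf18, -0.28 to 0.04 for Fgf9 and -0.03 to 0.14 for Fgf13. They were -0.47 to 0.03 for Fgfr4, -0.03 to 0.10 for Fgfrl1, -0.07 to 0.23 for Spry2, -0.26 to 0.02 for Spry3, -0.02 to 0.21 for Spred1 and -0.02 to 0.20 for Spred3. For Dusp4 the range was -0.10 to 0.14, for Etv4 -0.16 to 0.09 and for Etv5 -0.06 to 0.12.

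Dimmer probe sets of opposite sign gave -0.38 for Fgf4, 0.18 for Fgf3, 0.50 for Fgf9, -0.20 for Fgfr2, 0.16 for Fgfr4, 0.00 for Fgfrl1, -0.52 for Spry2, 0.05 for Spry4 and -0.06 for Etv5. Those of Spred1 gave -0.09, -0.31, -0.20 and -0.15, and those of Spred2 gave 0.37, 0.04 and 0.57. Signal over background limits Fgf10, Fgf22, Spry3 and Spred3, whose signals lay close to the brightest control probe sets.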

Other observations

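Of 26 tested genes that respond to Erk, 5 had a limma unadjusted p under 0.05, 2 of them higher and 3 lower, beside 3% higher and 3.89% lower among all tested genes. None passed over all probe sets. Besides Dusp1 and Dusp2, these were the AP-1 genes Fos and Jun and the zinc finger gene Klf10. Fos was at 60.6, 59.2 and 42.5 in wild types and 85.2, 98.9 and 62.1 in heterozygotes, so that every heterozygote lay above every wild type (log2 0.58, limma adjusted p = 0.774). Jun went the other way, at 200, 248 and 190 in wild types and 148, 164 and 186 in heterozygotes (log2 -0.35, limma adjusted p = 0.781). Klf10 was at 197, 165 and 153 in wild types and 238, 220 and 195 in heterozygotes, with an overlap between the groups (log2 0.34, limma adjusted p = 0.781). Gpc1, the gene of a heparan sulphate proteoglycan that presents Fgf ligands, was at 226, 203 and 187 in wild types and 147, 177 and 147 in heterozygotes (log2 -0.39, limma adjusted p = 0.731).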
